A study of Bos taurus with 15 samples.

Results

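Haploid bovine morulae of both parental origins were compared with diploid morulae, to describe what haploid embryos share whichever parent their genome came from. All 15 RNA-seq libraries and all 31999 gene rows of the deposited count table entered the comparison. The libraries were 5 of haploid androgenetic morulae, 5 of haploid parthenogenetic morulae and 5 of diploid morulae made by intracytoplasmic sperm injection (ICSI), in which a sperm is placed inside the oocyte. The 2 haploid groups were averaged with a weight of 0.5 each and set against ICSI, and a row is described as shared only where both haploid groups lay on the same side of ICSI. Titles of androgenetic libraries begin with TII and those of parthenogenetic libraries with CHX, codes that the labels do not explain. The labels name all embryos as Bos taurus morulae and give no breed, bull, oocyte donor, day, agent or pool size. How the embryos of a group were made cannot be told apart from its ploidy and parental genome, and nothing says that replicates came from separate embryos, so a p-value here covers only the spread among these libraries.

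A morula is the compact ball of cells that precedes the blastocyst, and in cattle the embryonic genome has become active by this stage. An androgenetic embryo carries only chromosomes from a sperm, and a parthenogenetic embryo only chromosomes from an oocyte. Both kinds have a single chromosome set when haploid, while imprinted genes, which are read from only the maternal or only the paternal copy, set them apart from each other. Haploid mammalian embryos are known to develop poorly and to drift towards diploidy. Counts scaled to the library measure a transcript's share of all RNA, so fewer cells and less RNA per cell cannot be told apart here.

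Totals ranged from 19968080 to 28981600 counts per library, and 16375 rows, holding 99.9% of counts, passed the expression filter. Genes detected (rows with at least 1 count) averaged 17350.1 ± 1639.8 (SD, n = 10) in haploid and 18815 ± 1995 (n = 5) in ICSI libraries, a difference of -1465 (exact two-sided permutation test over 3003 arrangements, p = 0.152, the same after adjustment over 2 measures). ICSI replicate 5, with 15286 genes, lay far below the other ICSI libraries at 19196 to 19950, and without it the difference was -2347 (exact test, adjusted p = 0.0160). By group, genes detected averaged 16634 ± 1881 in androgenetic and 18066 ± 1108 in parthenogenetic libraries (n = 5 each). The 20 highest rows took 14.1% ± 2.99 of haploid and 10.3% ± 1.15 of ICSI counts, a difference of 3.75 points (exact test, p = 0.01998, adjusted 0.03996). This difference ranged from 3.29 to 4.22 points as each library was left out and lost its call without androgenetic replicate 1, 2, 5 or 6, parthenogenetic replicate 6, or ICSI replicate 1, 2, 3 or 4. By group the share averaged 15.9% ± 2.18 in androgenetic and 12.3% ± 2.76 in parthenogenetic libraries. Parthenogenetic replicate 6 stood at 17.2%. The other parthenogenetic libraries, at 10.7% to 11.3%, lay within the ICSI range of 9.22% to 12.3%, so the difference was not shown in both haploid groups. The fewest genes in each group were in androgenetic replicate 6 (13564), parthenogenetic replicate 6 (16154) and ICSI replicate 5. Of the marker genes chosen for the stage, SOX2 alone had a row under its symbol, so the label of morula and carry-over of cumulus or sperm RNA could not be checked further. SOX2, the pluripotency factor, averaged 2.503 ± 2.48 CPM among androgenetic, 4.84 ± 3.01 among parthenogenetic and 2.58 ± 1.05 among ICSI libraries.

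**Figure D1:**
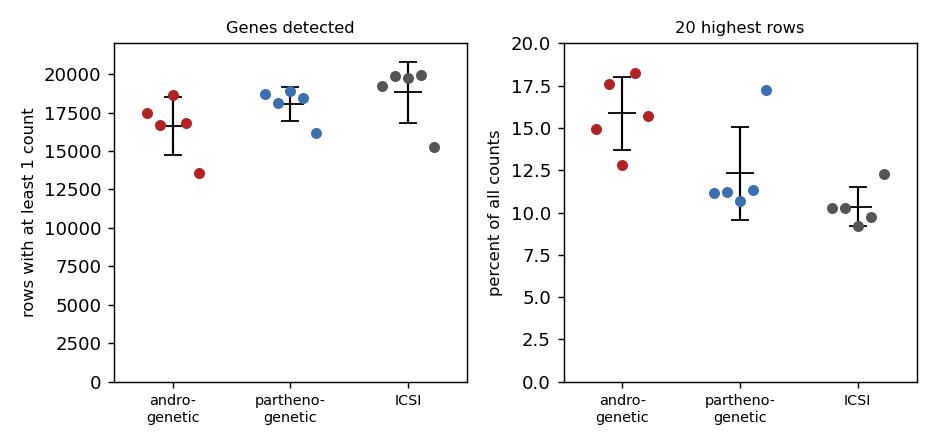
Genes detected (left, rows with at least 1 count) and the percent of all counts in the 20 highest rows (right) in each library, in order of replicate within a group, with bars for the mean and SD of 5 libraries. ICSI replicate 5 had 15286 genes, below the haploid mean of 17350.1, and parthenogenetic replicate 6 had the highest share of its group at 17.2%.

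The mean of the haploid groups fell in 4 gene rows that were lower in both groups, and no row was called higher in both. In edgeR's quasi-likelihood test 4 of the 16375 rows (0.0244%) had an adjusted p under 0.05 for the haploid mean and lower values in both haploid groups, and 0 rows (0%) did so with higher values. Ignoring the signs in each group, 6 rows (0.0366%) were called, all lower. The other two were SNURF, an imprinted gene read from the paternal copy, and an Ensembl row that followed it. SNURF had log2 fold changes of 0.82 in androgenetic and -7.41 in parthenogenetic against ICSI morulae, so its mean of -3.3 is not a shared change. At an unadjusted p under 0.05, 562 rows (3.43%) were lower and 751 rows (4.59%) higher in both haploid groups, of 1476 rows (9.01%) with any signs. In 1 of the 4 rows each haploid group also passed on its own, while in the other 3 the androgenetic difference did not. Those 3 rows moved together across libraries, so the 4 rows may not be separate signals. When each row took the larger of its 2 pairwise p-values, 0 rows passed after adjustment, with 13 lower and 78 higher at an unadjusted p under 0.05. DESeq2 called 33 shared lower and 151 shared higher rows, and limma voom 12 and 0.

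The row ENSBTAG00000032079, for which the files give no gene name, was the clearest shared change: it fell 30.7-fold in the haploid mean. Across ICSI libraries ENSBTAG00000032079 had 315, 483, 531, 858 and 829 CPM, while androgenetic libraries had 160.4, 136, 198, 29.6 and 20.3 and parthenogenetic libraries 3.98, 4.05, 5.81, 3.16 and 0.667. All 10 haploid libraries lay below all 5 ICSI libraries, and parthenogenetic libraries lay below all androgenetic ones. The log2 fold change was -4.94 ± 0.52 (SE) for the haploid mean, with edgeR adjusted p = 2.59e-04. It was -2.47 ± 0.61 in androgenetic (edgeR adjusted p = 0.0416) and -7.41 ± 0.77 in parthenogenetic morulae (adjusted p = 8.33e-05). The haploid groups also differed from each other by 4.94 ± 0.69 (edgeR adjusted p = 0.00437), so the fall was shared in direction and unequal in size. The row was called in 26 of the 27 other settings tried, and with both haploid groups pooled as 1 group of 10 its log2 fold change was -3.42 (edgeR adjusted p = 0.739).

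In the other 3 rows the call for the mean came with large parthenogenetic differences and androgenetic libraries that reached into the ICSI range. LOC112445446, a gene that RefSeq lists as protein coding on an unplaced sequence, was nearly absent there. For LOC112445446 the androgenetic libraries gave 2.37, 0.0616, 18.1, 0.119 and 0.163 CPM, the parthenogenetic libraries 0, 0, 0, 0 and 0.0445, and ICSI libraries 88.6, 14.4, 12.9, 8.59 and 8.47. Androgenetic replicate 4 stood inside the ICSI range and the other 9 haploid libraries below it. Over each whole group, parthenogenetic libraries held 1 count and ICSI libraries 3658, a ratio of ICSI to parthenogenetic CPM of 3632 (95% exact interval 651 to 143478, for counting error only). The androgenetic log2 fold change was -2.67 ± 1.24 (edgeR adjusted p = 0.239), which did not pass, while the haploid mean passed (edgeR adjusted p = 0.0425).

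The other 2 were Ensembl rows. One had 0.217 to 258 CPM among androgenetic, 0.0625 to 0.213 among parthenogenetic and 48.3 to 419.8 among ICSI libraries, and the other 0.493 to 273, 0.1298 to 1.53 and 56.9 to 441. In both, androgenetic replicate 4 was the highest androgenetic library and ICSI replicate 1 the highest ICSI library, as in LOC112445446. Across ICSI libraries the first had 419.8, 136, 148, 118 and 48.3 CPM and the second 441, 179, 170, 145 and 56.9. Over all libraries their log2(CPM + 1) correlated at 0.954 with each other, and at 0.925 and 0.889 with LOC112445446. These correlations include the differences between groups. The 3 rows may therefore not be separate signals. The highest androgenetic libraries reached into the ICSI range in both, while all parthenogenetic libraries lay far below it. Their log2 fold changes against ICSI were -1.41 and -1.35 in androgenetic (edgeR adjusted p = 0.517 and 0.472) and -10.68 and -8.66 in parthenogenetic morulae. For the haploid mean they were -6.05 ± 1.03 and -5.01 ± 0.85 (edgeR adjusted p = 0.0425 for each), and the haploid groups differed in both (adjusted p = 0.0156 for each).

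The count of shared lower rows depended on single libraries. It was 8 without androgenetic replicate 4 and 6 without androgenetic replicate 2. Without androgenetic replicate 6 or parthenogenetic replicate 5 it was 2, and without any 1 of androgenetic replicates 1 and 5, parthenogenetic replicates 1, 2, 3 and 6, and the 5 ICSI libraries it was 1. The count of shared higher rows was 0 in each of these fits.

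ULBP27 and ULBP3, like LOC112445446, had few or no counts in parthenogenetic libraries. ULBP genes encode ligands of NKG2D, the activating receptor of natural killer cells, and form a family of near-identical copies, so reads may be split among them. ULBP27 stood at 9.22, 0.185, 34.2, 2.79 and 32.1 CPM across the androgenetic group, at 0.0711, 0.0386, 0.292, 0 and 0 across the parthenogenetic group, and at 75.1, 19.6, 17.2, 13.99 and 15.2 across ICSI libraries. Its log2 fold changes were -0.84 ± 0.99 in androgenetic and -8.33 ± 1.38 in parthenogenetic morulae. The haploid mean of -4.59 missed the threshold in edgeR (adjusted p = 0.0923) and passed in DESeq2 (adjusted p = 2.63e-04) and limma voom (0.0356). Androgenetic replicates 4 and 6 stood within the ICSI range, and all 5 parthenogenetic libraries far below it.

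Across ICSI libraries ULBP3 had 31.4, 4.94, 5.83, 5.12 and 4.303 CPM, while androgenetic libraries had 1.8, 0.0616, 10.3, 0.356 and 0.0542 and parthenogenetic libraries 0, 0, 0, 0 and 0. With 0 counts against 1427 in ICSI libraries, ULBP3 was at least 472-fold lower in parthenogenetic morulae, taking a floor of 3 counts over the group. The androgenetic value was -2.03 ± 1.29 (edgeR adjusted p = 0.418), with androgenetic replicate 4 again the highest and inside the ICSI range. PINLYP, which encodes a phospholipase inhibitor and LY6/PLAUR domain protein, had 0.702 to 50.8 CPM among androgenetic, 0.4005 to 8.28 among parthenogenetic and 11.5 to 69.4 among ICSI libraries. Its haploid mean was -1.72 ± 0.81 and 8 of 10 haploid libraries lay below all ICSI libraries (edgeR adjusted p = 0.543).

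**Figure D2:**
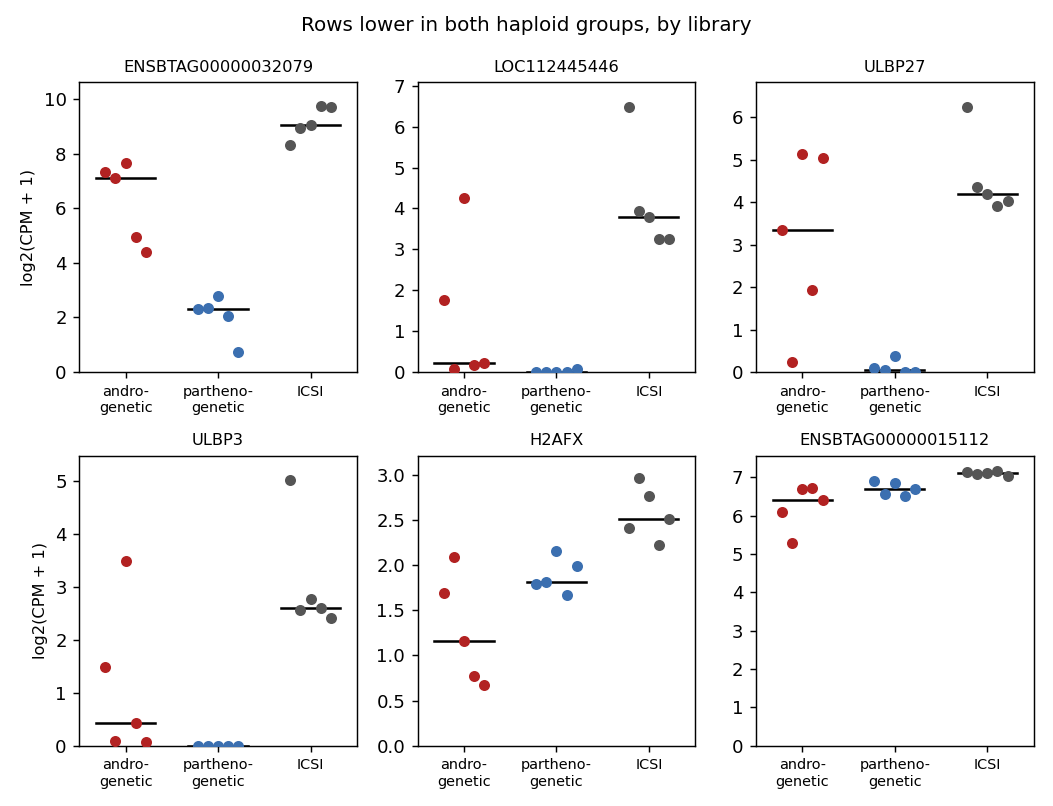
Log2(CPM + 1) of 6 rows in each library, in order of replicate within a group, with a line at the group median. In ENSBTAG00000032079, H2AFX and ENSBTAG00000015112 the 10 haploid libraries lie below the 5 ICSI libraries, while in LOC112445446, ULBP27 and ULBP3 androgenetic libraries reach the ICSI range and parthenogenetic libraries are at or near 0.

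Complete separation of the 10 haploid from the 5 ICSI libraries was seen for 9 rows below ICSI (0.055%) and 4 rows above it (0.0244%). Among the 9 were 2 pairs of rows with nearly the same counts, H2AFX with an Ensembl row (707 and 701 counts over ICSI libraries) and LOC112443459 with another (375 and 373), so the rows are not all separate signals. H2AFX was the one row with a symbol among them. It encodes the histone H2AX, which is phosphorylated in chromatin around DNA breaks. For H2AFX the androgenetic libraries gave 2.24, 3.26, 1.24, 0.713 and 0.596 CPM, the parthenogenetic libraries 2.45, 2.51, 3.44, 2.19 and 2.98, and ICSI libraries 4.31, 6.82, 5.77, 3.65 and 4.68. The highest haploid library had 3.44 CPM and the lowest ICSI library 3.65, so the groups were separate by a small gap. Its log2 fold changes were -1.65 ± 0.73 in androgenetic and -0.89 ± 0.72 in parthenogenetic morulae, and both signs were kept in all 27 other settings. The haploid mean of -1.27 ± 0.6 had an unadjusted p of 0.04704 and did not pass over all rows (edgeR adjusted p = 0.538).

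The other separated rows had no symbol. ENSBTAG00000015112 stood at 67.8, 37.9, 103, 104 and 83.3 CPM across the androgenetic group, at 119.9, 94.6, 114, 90.2 and 102 across the parthenogenetic group, and at 141, 135, 139, 143 and 129 across ICSI libraries. ICSI libraries of this row were close together, and haploid libraries reached from 37.9 to 119.9 CPM below them, with a haploid mean of -0.6 ± 0.26 on the log2 scale (edgeR adjusted p = 0.494). LOC112443459, which RefSeq lists as a long non-coding RNA, had 1.82 to 3.403 CPM in ICSI libraries and 0 to 1.48 and 0 to 0.844 in androgenetic and parthenogenetic ones. ENSBTAG00000039329, at 1.44 to 4.25 CPM in ICSI libraries, passed in DESeq2 (adjusted p = 0.0150) and limma voom (0.00626) but not in edgeR (0.243). ENSBTAG00000004595 passed in DESeq2 alone (adjusted p = 0.00462, edgeR 0.239). ICSI replicate 5 held 28.3 CPM of ENSBTAG00000004595 and the other ICSI libraries 0.359 to 2.19.

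Above ICSI, the separated rows were all Ensembl rows. Of these, ENSBTAG00000008642 and ENSBTAG00000033252 moved nearly in proportion across libraries, both highest in parthenogenetic replicate 6 (275 and 207 CPM). They may therefore not be separate signals. ENSBTAG00000021566 had 4.82 to 38.9 CPM among androgenetic, 3.13 to 7.84 among parthenogenetic and 1.59 to 3.04 among ICSI libraries. It was 3.47-fold higher in the haploid mean (log2 fold change 1.79 ± 0.57), with 2.74 in androgenetic and 0.85 in parthenogenetic morulae. The mean passed in DESeq2 (adjusted p = 0.0143) but not in edgeR (0.369) or limma voom (0.352). Across ICSI libraries ENSBTAG00000010419 had 22.6, 19.03, 17.8, 20.98 and 10.2 CPM, while androgenetic libraries had 46.97, 77.4, 23.7, 70.5 and 35.2 and parthenogenetic libraries 27.4, 23.3, 25.6, 25.2 and 47.6. It was 2.15-fold higher in the haploid mean (log2 fold change 1.1 ± 0.37, edgeR adjusted p = 0.369). For ENSBTAG00000008642 the androgenetic libraries gave 168, 245, 142, 164 and 136 CPM, the parthenogenetic libraries 115, 105, 106, 106 and 275, and ICSI libraries 80.9, 93.8, 77.3, 97.7 and 103. This row was 1.71-fold higher (0.78 ± 0.3, edgeR adjusted p = 0.421). In ENSBTAG00000010419 and ENSBTAG00000008642 the androgenetic and parthenogenetic values were nearer to each other than in the called rows, at 1.49 and 0.72 in the first and 0.92 and 0.64 in the second. The parthenogenetic values leaned on replicate 6, at 47.6 and 275 CPM. Parthenogenetic medians were 25.6 and 106 CPM, nearer to the ICSI medians (19.03 and 93.8) than to the androgenetic ones (46.97 and 164).

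Differences shared in sign were mostly larger in androgenetic morulae. Among the 562 rows lower in both groups at an unadjusted p under 0.05, the median size of the log2 fold change was 2.42 in androgenetic and 0.58 in parthenogenetic morulae, and 91.1% were larger in the androgenetic group. Among the 751 higher rows the medians were 2.12 and 0.82, and 96.1% were larger in the androgenetic group. Over all tested rows the medians were 0.90 and 0.39 and the share 73.6%. edgeR called the haploid groups different at an adjusted p under 0.05 in 54 of the lower rows (9.61%) and 36 of the higher rows (4.79%), against 287 (1.75%) of all tested rows. Both comparisons use the same 5 ICSI libraries, so agreement in sign between them is no independent evidence. Androgenetic libraries were also the least alike, with rank correlations (Spearman) inside the group of 0.679 to 0.753 by library. The same measure gave 0.791 to 0.870 for parthenogenetic and 0.798 to 0.894 for ICSI libraries. Whether the wider androgenetic spread added to the size of the androgenetic differences was not tested.

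Single libraries with few genes stood at the edge of many of these rows. Parthenogenetic replicate 6 was the highest library of its group in 74.0% of the 751 higher rows, against 26.9% of all tested rows. ICSI replicate 5 was the highest of its group in 49.0%, against 28.8%, and androgenetic replicate 6 in 22.4%, against 21.2%. In the 562 lower rows parthenogenetic replicate 6 was the lowest of its group in 50.2%, against 34.4%. Without parthenogenetic replicate 6, 529 rows were higher at an unadjusted p under 0.05, and without the library with fewest genes in each group 874 were higher and 682 lower. A fit that held genes detected as a covariate called 2 rows lower and 0 higher in both groups.

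Histone rows were higher in both haploid groups more often than lower. Histones package DNA, and the replication-dependent genes among them are transcribed with DNA synthesis, mostly without a poly(A) tail. The libraries were made from polyadenylated RNA, so histone transcripts without such a tail may be missed in these counts. Of 17 tested rows, 12 had positive and 1 (H2AFX) negative log2 fold changes in both groups, where 4898 of all 16375 rows were positive and 4738 negative in both. The median was 1.15 for the haploid mean, 1.86 in androgenetic and 0.50 in parthenogenetic morulae, beside -0.04, -0.01 and 0.02 over all tested rows. edgeR called none of the 17 at an adjusted p under 0.05. At an unadjusted p under 0.05, 6 were higher and 1 lower in both groups, beside 4.59% higher and 3.43% lower of all tested rows. Some of these histone rows moved together across libraries, so they are not all separate signals. The linker histone rows HIST1H1D, HIST1H1A and H1F0 were positive in both groups too.

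H4C14, a gene for histone H4, had the most counts of the family. H4C14 stood at 4008, 1949, 1241, 1583 and 2512 CPM across the androgenetic group, at 487, 2551, 998, 289.9 and 1591 across the parthenogenetic group, and at 736, 550.1, 297, 408 and 308 across ICSI libraries. In all, 8 of the 10 haploid libraries lay above all ICSI libraries, while parthenogenetic replicate 5 lay below them and parthenogenetic replicate 1 within their range. It was 4.91-fold higher in androgenetic and 2.57-fold higher in parthenogenetic morulae, with a haploid mean of 1.83 ± 0.48 (edgeR adjusted p = 0.349, DESeq2 0.0106). Without parthenogenetic replicate 6 the parthenogenetic value of H4C14 was 1.23, close to the 1.36 with it. Replicate 2, at 2551 CPM, was the highest parthenogenetic library, and over the 27 other settings the parthenogenetic value ranged from 0.87 to 1.61. HIST1H2AK and HIST2H2AA4, for histone H2A, matched each other and an Ensembl row within 2% or 3 counts in every library, so they are uncertain as separate genes. Both were 3.65-fold higher in the haploid mean (edgeR adjusted p = 0.349, DESeq2 0.0102). HIST1H2AK also moved nearly in proportion to H4C14 across libraries. It stood at 1996 CPM beside 4008 of H4C14 in androgenetic replicate 1, and at 132 beside 289.9 in parthenogenetic replicate 5. The H2A rows and H4C14 may therefore be 1 signal.

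Other H4 rows were weaker in parthenogenetic morulae. Across ICSI libraries H4C1 had 21.5, 16.6, 13.5, 11.1 and 15.3 CPM, while androgenetic libraries had 55.4, 60.5, 50.8, 27.98 and 88.2 and parthenogenetic libraries 15.9, 19.96, 25.7, 21.2 and 22.9. All 10 haploid libraries of H4C1 lay above the ICSI median and 7 above the highest ICSI library, with 1.86 ± 0.38 in androgenetic and 0.44 ± 0.37 in parthenogenetic morulae. For H4C19 the androgenetic libraries gave 96.5, 22.6, 70.4, 13.5 and 91.7 CPM, the parthenogenetic libraries 7.36, 15.6, 39.4, 8.32 and 31.4, and ICSI libraries 11.4, 17.2, 6.102, 6.03 and 2.06. Its values were 2.78 ± 0.69 and 1.25 ± 0.66, and again 10 of 10 haploid libraries lay above the ICSI median. HIST2H2AC had 2.59 and 0.89, and without parthenogenetic replicate 6 the latter was 0.13. For the haploid mean, edgeR gave adjusted p = 0.369 for H4C1, 0.369 for H4C19 and 0.455 for HIST2H2AC. Copies of a histone gene are nearly identical, which leaves the assignment of reads to each of them uncertain.

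Aminoacyl-tRNA synthetases, which load amino acids onto tRNAs, lay on the other side. Of 18 tested rows 10 were negative and 2 positive in both haploid groups, where 4738 of all 16375 rows were negative and 4898 positive in both. None was called (0.0366% of all tested rows were), and 3 were lower at an unadjusted p under 0.05, beside 3.43% of all tested rows. The median was -0.57 for the haploid mean, but -1.13 in androgenetic and -0.06 in parthenogenetic morulae, beside -0.04, -0.01 and 0.02 over all tested rows. CARS, the cysteine enzyme, had 2.68, 1.97, 4.63, 1.84 and 5.64 CPM among androgenetic, 11.9, 7.605, 8.15, 8.78 and 11.5 among parthenogenetic and 10.5, 22.2, 15.6, 19.1 and 4.12 among ICSI libraries. All 10 haploid libraries of CARS lay below the ICSI median of 15.6 CPM, and the ICSI library with fewest genes, replicate 5, reached down to the androgenetic range. Its haploid mean was -1.33 ± 0.47 (edgeR adjusted p = 0.387), with -2.09 in androgenetic and -0.58 in parthenogenetic morulae.

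KARS, the lysine enzyme, stood at 149, 125, 111, 61.1 and 27.9 CPM across the androgenetic group, at 258, 197, 304, 206 and 123 across the parthenogenetic group, and at 304, 209, 275, 338 and 137 across ICSI libraries. The lowest androgenetic and parthenogenetic libraries of KARS were their replicates 6, and the groups overlapped. KARS had -1.41 ± 0.42 in androgenetic but -0.21 ± 0.41 in parthenogenetic morulae, and the latter turned positive with genes detected as a covariate (0.02) and with replicate numbers as a block (0.17). RARS, the arginine enzyme, had -2.02 ± 0.61 and -0.44 ± 0.59, and its parthenogenetic value was 0.03 without ICSI replicate 5, where RARS stood at 854 CPM against 196 to 375 in the other ICSI libraries. In edgeR the adjusted p of the haploid mean was 0.494 for KARS and 0.449 for RARS.

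**Figure D3:**
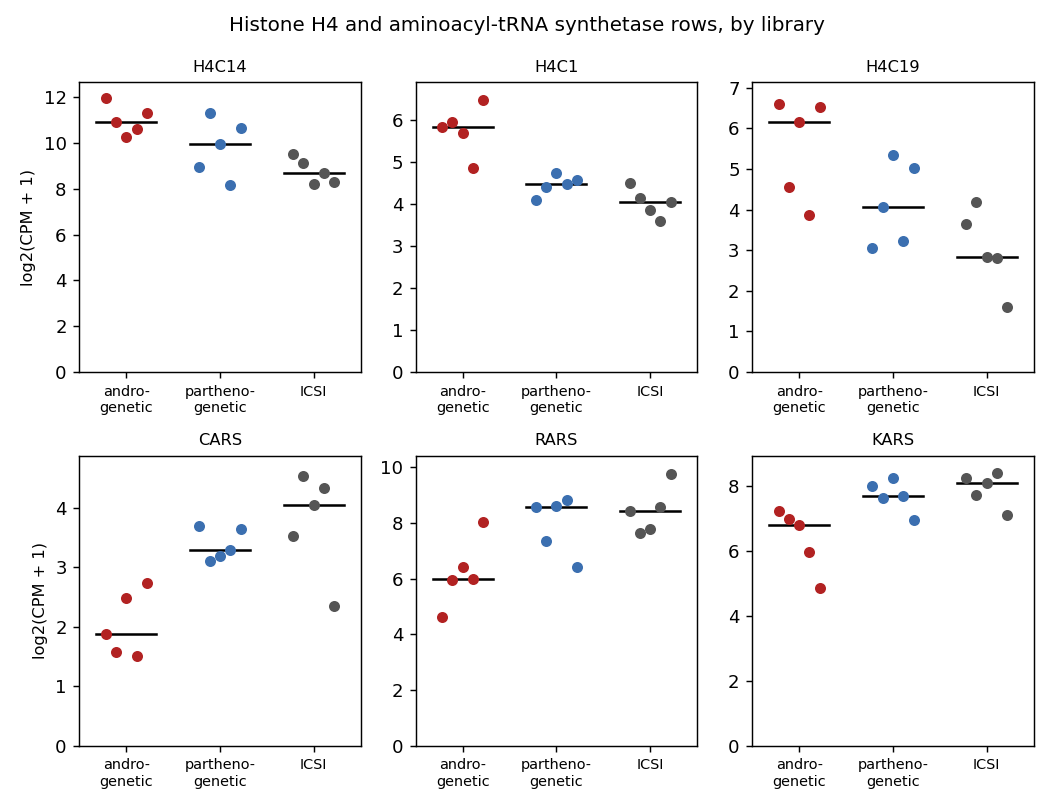
Log2(CPM + 1) of 3 histone H4 rows (top) and 3 aminoacyl-tRNA synthetase rows (bottom) in each library, in order of replicate within a group, with a line at the group median. All 10 haploid libraries of H4C1 and H4C19 lie above the ICSI median, and parthenogenetic libraries of RARS and KARS overlap the ICSI range.

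The next genes had no call and are among 19 rows chosen after their values were seen, as symbol rows with an unadjusted p under 0.05, the same sign in both groups under every setting, a group mean of at least 5 CPM and at least 8 of 10 haploid libraries beyond the ICSI median. C7H19orf70 (MICOS13) and MINOS1 (MICOS10) encode subunits of MICOS, the complex that shapes the cristae of the inner mitochondrial membrane. Across ICSI libraries C7H19orf70 had 359, 279, 202, 251 and 319 CPM, while androgenetic libraries had 648, 1215, 313, 917 and 383 and parthenogenetic libraries 371, 381, 309.6, 303 and 657. All 10 haploid libraries lay above the ICSI median and 7 above the ICSI maximum. The log2 fold changes were 1.3 ± 0.39 and 0.52 ± 0.38 in androgenetic and parthenogenetic morulae, with 0.91 for the mean (edgeR adjusted p = 0.412).

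For MINOS1 the androgenetic libraries gave 1893, 3425, 992, 3616 and 1689.6 CPM, the parthenogenetic libraries 1187, 1181, 589, 887 and 2893, and ICSI libraries 1177, 969, 758, 745 and 823. In MINOS1, 9 of 10 haploid libraries lay above the ICSI median, while parthenogenetic replicate 3 lay below every ICSI library. Its values were 1.38 ± 0.44 and 0.59 ± 0.43, and the parthenogenetic one was 0.1 without parthenogenetic replicate 6. SMIM26, for a small integral membrane protein, had 136 to 677 CPM among androgenetic, 90.8 to 784 among parthenogenetic and 84.1 to 229 among ICSI libraries. Its parthenogenetic log2 fold change was 1.0 with and 0.01 without parthenogenetic replicate 6, so the parthenogenetic difference of SMIM26 rested on that library.

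OST4 encodes a very small subunit of oligosaccharyltransferase, which attaches N-glycans to proteins in the endoplasmic reticulum. OST4 stood at 1389, 2526, 679, 2788 and 1601 CPM across the androgenetic group, at 416, 596, 350.0, 510.0 and 1499.8 across the parthenogenetic group, and at 434, 458, 388, 372 and 648 across ICSI libraries. All 5 androgenetic libraries of OST4 lay above every ICSI library, but parthenogenetic replicate 6 alone did so in its group. The parthenogenetic value went from 0.55 to 0.02 without it, and the haploid mean was 1.26 ± 0.4 (edgeR adjusted p = 0.369).

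ASNA1 (GET3), whose product delivers tail-anchored proteins to the endoplasmic reticulum membrane, was on the lower side. Across ICSI libraries ASNA1 had 7.46, 6.33, 12.2, 14.4 and 7.204 CPM, while androgenetic libraries had 1.58, 0.677, 2.41, 1.25 and 0.271 and parthenogenetic libraries 10.3, 3.94, 11.5, 4.94 and 1.56. All androgenetic and 3 parthenogenetic libraries lay below every ICSI library. The values were -2.94 ± 0.77 and -0.56 ± 0.71, with -1.75 for the haploid mean (edgeR adjusted p = 0.369).

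RBM8A, which encodes Y14 of the exon junction complex deposited on spliced mRNA, had high counts in all groups. For RBM8A the androgenetic libraries gave 3259.9, 3378, 2026, 4985 and 5818 CPM, the parthenogenetic libraries 1198, 4089, 1203, 1517 and 6016, and ICSI libraries 1524, 1136, 923, 1206 and 2541. In all, 4 androgenetic libraries and parthenogenetic replicates 2 and 6 lay above the ICSI maximum, and parthenogenetic replicates 1 and 3 just below the ICSI median. RBM8A differed nearly as much in parthenogenetic (0.94 ± 0.49) as in androgenetic morulae (1.41 ± 0.49), but the former was 0.45 without parthenogenetic replicate 6. The haploid mean had edgeR adjusted p = 0.411. RBM8A, C7H19orf70, SMIM26, RAMMET, RARS and KARS each had an Ensembl row with near-identical counts, so each pair is 1 signal.

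KIN and NCBP2-AS2 had lower values in both groups. KIN stood at 7.51, 14.4, 32.1, 11.7 and 31.5 CPM across the androgenetic group, at 44.3, 13.9, 40.6, 45.02 and 14.1 across the parthenogenetic group, and at 48.4, 31.5, 25.1, 45.5 and 86.02 across ICSI libraries. KIN encodes a DNA- and RNA-binding protein, and all 10 haploid libraries lay below its ICSI median, with -1.28 ± 0.52 and -0.58 ± 0.51 (edgeR adjusted p = 0.525 for the mean). NCBP2-AS2 lay below the ICSI median in all 10 haploid libraries as well. Across ICSI libraries NCBP2-AS2 had 10.7, 11.3, 13.3, 0.624 and 3.79 CPM, while androgenetic libraries had 1.14, 1.85, 4.18, 4.395 and 0 and parthenogenetic libraries 1.88, 2.08, 1.72, 0.469 and 2.14. ICSI replicates 4 and 5 overlapped the haploid libraries, and the values were -1.78 ± 1.05 and -2.26 ± 1.06 (edgeR adjusted p = 0.472 for the mean). Without a stated strand setting, reads of NCBP2-AS2 and its partner NCBP2 cannot be told apart.

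**Figure D4:**
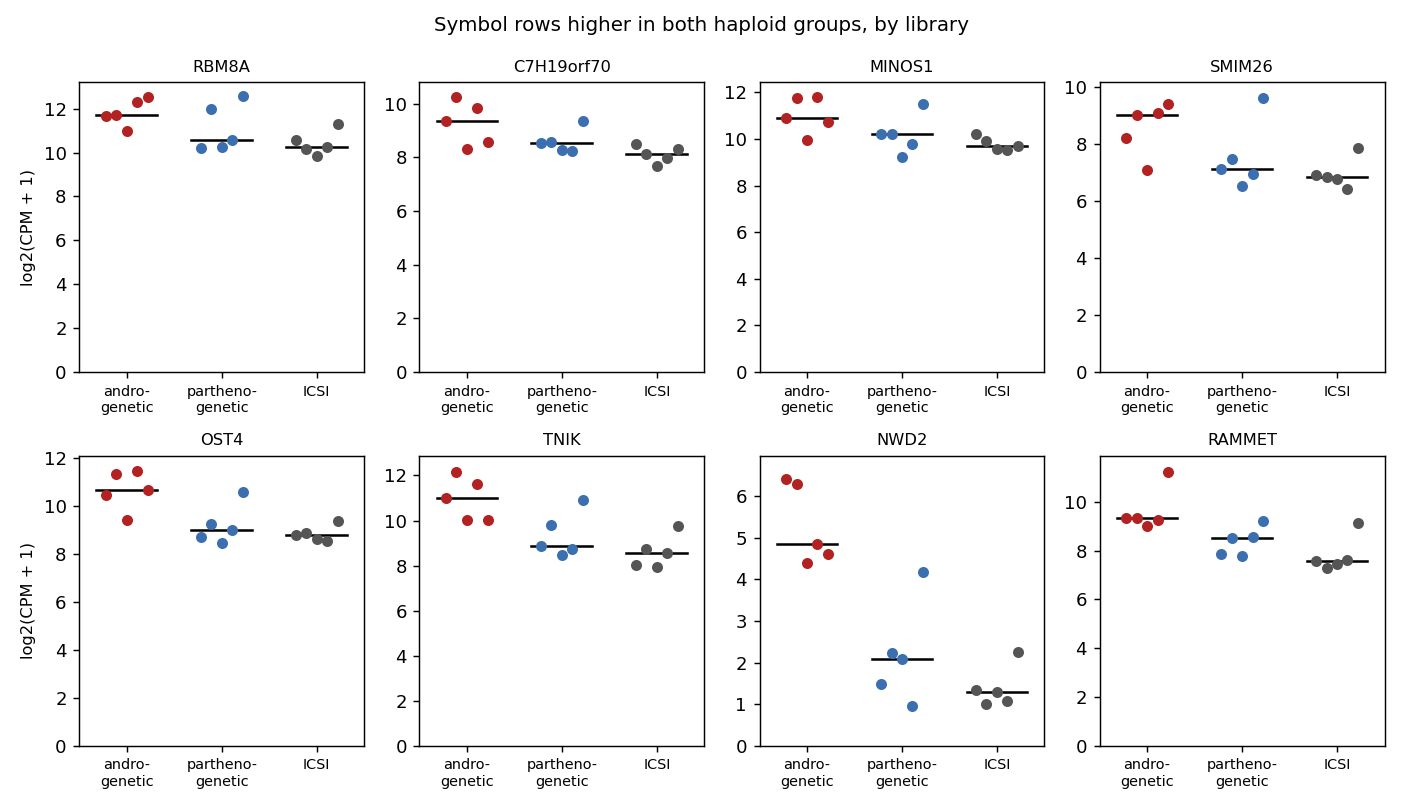
Log2(CPM + 1) of 8 rows with a symbol in each library, in order of replicate within a group, with a line at the group median. Androgenetic libraries are mostly the highest, and among parthenogenetic libraries replicate 6, the last point, is the highest in all 8 rows, at 784 CPM in SMIM26 and 1935 in TNIK.

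The title of the series names WNT signalling, and 3 genes listed for that pathway were tested under a symbol. TNIK, a kinase that activates TCF-dependent transcription of WNT targets, was higher in both haploid groups. For TNIK the androgenetic libraries gave 2023, 4565, 1046, 3182 and 1039.6 CPM, the parthenogenetic libraries 472, 903, 351, 428 and 1935, and ICSI libraries 258, 430.4, 245, 379.9 and 855. All 5 androgenetic libraries and parthenogenetic replicates 2 and 6 lay above every ICSI library. TNIK was 5.47-fold higher in androgenetic and 1.89-fold higher in parthenogenetic morulae, with a haploid mean of 1.68 ± 0.51 that did not pass in edgeR (adjusted p = 0.369) and passed in DESeq2 (0.0417). Without parthenogenetic replicate 6 the parthenogenetic log2 fold change went from 0.92 to 0.31. PYGO2, a nuclear coactivator of beta-catenin, had -0.81 and -1.39 in androgenetic and parthenogenetic morulae, and TLE1, a corepressor of TCF, -0.45 and -1.10, neither with an unadjusted p under 0.05.

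Both tested targets of the Hippo pathway, which links cell contact and position to YAP activity in the early embryo, were slightly negative in both groups. CYR61 had -0.72 in androgenetic and -0.30 in parthenogenetic morulae, and CTGF -0.15 and -0.39, neither with an unadjusted p under 0.05. Of 9 tested septins, filament-forming GTPases of the cytoskeleton and dividing cells, 3 were negative and 0 positive in both groups. Of all 16375 rows, 4738 were negative and 4898 positive in both. The septin median was -0.41 for the haploid mean, but -0.61 in androgenetic and -0.06 in parthenogenetic morulae. SEPT8 had 1.27, 0.985, 0.0376, 0.0594 and 0 CPM among androgenetic, 4.34, 0.502, 1.79, 0.688 and 2.49 among parthenogenetic and 2.26, 3.77, 4.07, 3.25 and 8.23 among ICSI libraries. Its androgenetic libraries and 3 parthenogenetic ones lay below every ICSI library, and the haploid mean was -2.16 ± 0.92 (edgeR adjusted p = 0.489). FBXL7, for an F-box protein of a ubiquitin ligase, had -3.15 ± 0.91 in androgenetic and -0.49 ± 0.84 in parthenogenetic morulae.

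Among symbol rows higher in both groups, NWD2 had the lowest p, and it encodes a protein with NACHT and WD repeat domains. NWD2 stood at 84.5, 77.3, 19.98, 27.7 and 23.2 CPM across the androgenetic group, at 1.78, 3.71, 3.21, 0.938 and 17.1 across the parthenogenetic group, and at 1.52, 1.02, 1.44, 1.09 and 3.79 across ICSI libraries. All 5 androgenetic libraries lay above every ICSI library, in the parthenogenetic group replicate 6 alone. Its values were 4.72 ± 0.83 and 1.59 ± 0.73, the haploid groups differed (edgeR adjusted p = 0.0443), and the haploid mean passed in DESeq2 (adjusted p = 3.04e-04) but not in edgeR (0.243). Without parthenogenetic replicate 6 the parthenogenetic value of NWD2 was 0.44.

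ERMAP, for a butyrophilin-like membrane protein of red cells, and TMEM269 lie close together on 1 chromosome, with 2 genes between them in RefSeq. Their counts moved together, at 4.18 to 6.71 TMEM269 counts per ERMAP count in every library, so they cannot be told apart as separate signals. ERMAP had 32.9 to 163 CPM among androgenetic, 12.8 to 117 among parthenogenetic and 9.53 to 51.2 among ICSI libraries, with 2.26 ± 0.64 and 1.06 ± 0.62 (edgeR adjusted p = 0.375 for the mean). RAMMET, C23H6orf52 and ALS2CR12 were higher in both groups, with haploid means of 1.2 ± 0.45, 0.84 ± 0.38 and 3.69 ± 1.35. In RAMMET and ALS2CR12 androgenetic replicate 6 stood far above its group, at 2390.3 and 44.8 CPM. The glycine tRNA names TRNAG-CCC and TRNAG-UCC, with haploid means of 1.52 and 1.73, stand for 248 and 163 RefSeq loci, so the locus behind each row is uncertain.

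**Figure D5:**
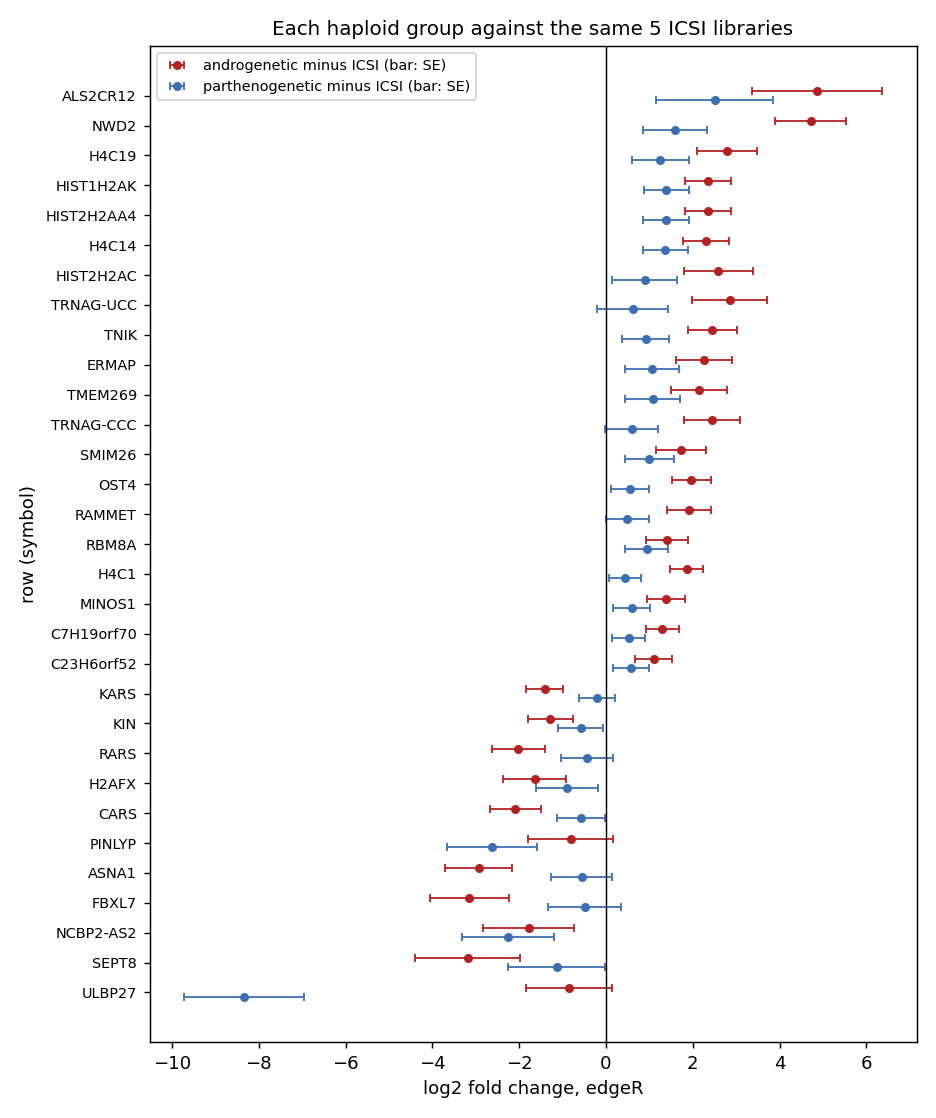
Log2 fold change against ICSI from edgeR for 31 named rows with a symbol, the same sign and over 3 counts in both haploid groups (ULBP3 and ZFP37 are left out), with androgenetic (red) and parthenogenetic (blue) values side by side and bars for the SE. Except in PINLYP, NCBP2-AS2 and ULBP27 the androgenetic value is the larger in size, and the same 5 ICSI libraries serve both comparisons.

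No imprinted gene tested under a symbol passed with the same sign in both haploid groups, and neither did the 1 X inactivation marker tested. The imprinted genes tested were 3 read from the paternal copy, SNURF among them, and 1 from the maternal copy. Most rows carry no symbol, so imprinted genes among them could not be picked out. USP29 and MKRN3, both read from the paternal copy in mammals, had 0.77 and 1.63 in androgenetic and 0.83 and 0.74 in parthenogenetic morulae, and MEG8, read from the maternal copy, 2.15 and 4.09, none with an unadjusted p under 0.05 for the mean. XIST, the RNA that coats the inactive X chromosome, averaged 13.9 ± 8.46 CPM among androgenetic, 51.6 ± 25.6 among parthenogenetic and 24.6 ± 16.3 among ICSI libraries. Its log2 fold changes had opposite signs, -0.83 ± 0.67 and 1.07 ± 0.67, as did those of SOX2, -0.05 ± 0.88 and 0.91 ± 0.89. In the list of genes named ZNF, ZFP, ZBTB or ZSCAN, 7 were positive and 12 negative in both groups of 48 tested. Of all 16375 rows, 4898 were positive and 4738 negative in both. The lowest p among the 48 was that of ZFP37. ZFP37 had 0 counts in all androgenetic libraries, 0 to 2.27 CPM among parthenogenetic and 0.0754 to 11.1 among ICSI libraries, where replicate 5 alone exceeded 1 CPM.

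Genes of other listed groups were too few under symbols to describe as groups. The cell cycle genes CNTRL and MAD2L1, the stress response gene CEBPG and the apoptosis gene BIK had positive values in androgenetic and negative values in parthenogenetic morulae. ARGFX, a PRD-like homeobox gene of genome activation, had 1.49 and 0.07, and DUXA, of the same class, 2.69 and -1.33. The ribosomal protein gene RPL31 had 1.12 and 0.01. Of the solute carriers 4 were positive and 5 negative in both groups of 13 tested, where 4898 of all 16375 rows were positive and 4738 negative in both. Of the solute carriers with a shared sign, 0 had an unadjusted p under 0.05. ATP5S, of ATP synthase, had opposite signs, and ATP6V0C, of the vacuolar proton pump, was slightly negative in both.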

How the data were processed

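RNA-seq was made from bovine morulae in 15 libraries, from polyadenylated RNA with SMART-Seq HT and Nextera XT kits, per the labels' protocols. The deposited values are raw read counts per gene that the authors made with Trim Galore, cutadapt, STAR and featureCounts, per the submitters' processing notes. Their genome build, annotation, versions and strand setting are not given in the sources used here. Of 31999 rows, 27607 carry Ensembl identifiers alone and hold 92.9% of counts. Of the 4392 others 3006 matched the RefSeq table (ARS-UCD2.0, names and order of genes only), and 858 rows have a symbol.

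Counts were tested in R 4.3.3 with edgeR 4.0.16: TMM scaling, its default expression filter with the groups given, quasi-likelihood fitting of a mean for each group, and adjustment by Benjamini-Hochberg across 16375 rows, with a threshold of 0.05. The contrast weighted each haploid group 0.5, and CPM are TMM-scaled. DESeq2 1.42.0, limma 3.58.1 (voom), other scaling and filters, a covariate, pooled haploid groups and leaving out libraries served as alternatives, and the fitting was tested on simulated data. Library measures had exact two-sided permutation tests.

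The rule for naming took called rows, separated symbol rows of at least 5 CPM, symbol rows called by both DESeq2 and voom, listed genes with an unadjusted p under 0.05 and the same sign in both groups, and SOX2 and XIST. It named 22 rows, and 19 more were chosen after their values were seen, as were the Ensembl rows, LOC112443459 and list members without such a p. The members and gene lists were chosen with earlier results of these data known. Rows within 2% or 3 counts of each other in every library were treated as near-identical.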

Additional observations from a re-analysis of the deposited data

Results flagged for a closer look

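Among 129 groups of 5 libraries tested over 41 rows (named by the rule or described) and 2 library measures, 17 held a library far from the others, where chance flags about 1 in 20. The values below are the gap to the nearest library divided by the range of the group, taken on log2(CPM + 1) for rows.

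ICSI replicate 1 stood above its group in LOC112445446 (0.783), ULBP27 (0.803) and ULBP3 (0.86), and below it in XIST (0.766). ICSI replicate 5 stood above its group in ZFP37 (0.829), NWD2 (0.742) and RAMMET (0.826), and below it in genes detected (0.838). Parthenogenetic replicate 6 had the only count of its group in LOC112445446 (1), the fewest genes (0.713) and the highest share of the 20 highest rows (0.904). Androgenetic replicate 6 was apart in ALS2CR12 (0.723) and RAMMET (0.854). Parthenogenetic replicate 3 was apart in ULBP27 (0.732), and parthenogenetic replicate 5 in NCBP2-AS2 (0.813). In the 2 called Ensembl rows other than ENSBTAG00000032079 with shared signs, parthenogenetic replicate 1 (0.815) and parthenogenetic replicate 5 (0.807) were apart.

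Among the 41 rows, the effect against ICSI differed between the haploid groups in 9 (edgeR's quasi-likelihood test of the difference, Benjamini-Hochberg adjusted p under 0.05). The log2 difference, androgenetic minus parthenogenetic, was 4.94 in ENSBTAG00000032079, 8.24 in SNURF and 8.46 in the Ensembl row that followed it. It was 8.4 in LOC112445446, 7.49 in ULBP27, 9 in ULBP3 and 3.12 in NWD2. In the other 2 called Ensembl rows it was 9.27 and 7.31. Fitted values for LOC112445446 and ULBP3, with 1 and 0 counts in parthenogenetic libraries, depend on the prior count and are no bounds.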

How the results depend on the processing

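The number of rows lower in both haploid groups was 4 and became 33 with DESeq2, 19 with DESeq2's independent filtering set to 0.05, 12 with limma voom, 2 with a filter of at least 1 CPM in 10 libraries, 2 with genes detected as a covariate and 1 without the library with fewest genes in each group. It was 0 with both haploid groups as 1 group of 10, and 0 (13 at an unadjusted p under 0.05) when each row took the larger of its 2 pairwise p-values, and it ranged from 1 to 8 as single libraries were left out. The number higher in both groups was 0 and became 151 and 234 in the same DESeq2 fits, and stayed at 0 in the other 26 settings. With the replicate number as a block, 1 row was lower. The labels do not say whether the numbers pair the samples, and correlations of deviations between libraries cannot decide it. Of 12 same-numbered pairs, 4 had correlations over 0.1 (-0.09 to 0.13), and differently numbered pairs ranged from -0.31 to 0.23. The difference in genes detected ranged from -2347 to -1044 as libraries were left out, and that in the share of the 20 highest rows from 3.29 to 4.22 points; over the 100 highest rows it was 8.43 points (exact permutation test, adjusted p = 0.0553). The haploid mean of SOX2 turned to -0.044 without scaling factors and -0.051 with voom. That of XIST turned to -0.28 without scaling factors and -0.19 with the covariate, and ranged from -0.19 to 0.44 as libraries were left out. Without scaling factors the median of all tested rows moved from -0.04 to -0.4. The causes were not tested. Settings that drop scaling, take the larger p-value or set DESeq2's filtering were chosen after the data were seen. Depth limits LOC112445446, ULBP3 and ZFP37, where a haploid group held 0 or 1 counts.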
